A study of Saccharomyces cerevisiae with 3 samples.

Results

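Loss of the linker histone gene HHO1 was examined here in unheated yeast, on the 1 array of 3 that set the hho1 deletion strain at 25 °C against the wild type at 25 °C. The array was chosen by its label, with the deletion strain's RNA in the Cy3 (green) channel and wild-type RNA in the Cy5 (red) channel. Both strains of *Saccharomyces cerevisiae* were grown in the rich medium YPAD with shaking to an OD600 of 0.5, and no heat was applied. The other arrays held the hho1 deletion strain and the wild type after 15 min at 37 °C, each against wild-type RNA from 25 °C, which was labelled with Cy5 on the first and with Cy3 on the second. They are used below only as a source of further wild-type channels from 25 °C and for the strain difference at 37 °C. The labels name neither the strain background, the mating type nor the form of the deletion, and nothing states whether the wild-type RNA of the 3 arrays came from 1 culture. Of 6256 genes on the array 5984 (95.7%) were measured, 3783 of them on 2 spots and 2201 on 1 spot.

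Hho1 is the linker histone of budding yeast. A linker histone sits on the outside of the nucleosome, where DNA enters and leaves the core particle, and helps to fold chromatin. Yeast Hho1 is unusual in carrying a pair of globular domains, is not needed for growth, and has been studied for its part in chromatin compaction in resting cells, in recombination and in silencing near chromosome ends. The gene classes below therefore begin with chromatin and gene position and go on to the main activities of a growing cell.

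With 1 array there is no replicate of the deletion, so no test was run and no p-value is given, and each SD is between the spots of 1 gene on 1 slide. All values are log2 ratios, deletion strain over wild type. A gene was counted as higher or lower by a larger rule when its mean ratio reached 1 in size and each spot 0.58 in that direction, and by a slight rule when the mean reached 0.3 and each spot 0.2. "Rose" and "fell" below mean past one of these rules on this array. The 2 strains carried different dyes with no dye swap, so a dye effect of a gene cannot be told apart from an effect of the deletion in the within-array ratio. For that reason a same-dye value is given beside it: the deletion strain's Cy3 channel of this array against the wild-type 25 °C channel in Cy3 on the array of the heat-shocked wild type. That value compares single channels of arrays on different slides, and on the second slide the wild-type channel was normalised together with heat-shocked RNA. The same-dye value shares the deletion strain's channel with the within-array ratio, and by construction the 2 differ by the wild type's own Cy3 over Cy5 difference. That difference was itself taken between slides, so it holds more than the dye.

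HHO1 itself (YPL127C, on the left arm of chromosome XVI) had by far the lowest ratio. Its signal above spot background was 15.2 and 10.6 on the 2 spots in the deletion strain, against 5242 and 5705 in the wild type. The log2 ratios of the spots were -4.22 and -4.45, with a mean of -4.34 ± 0.16 (SD, 2 spots), and the same-dye value was -4.26. Only 1 of the 2 deletion-strain spots was well above background, so the ratio is limited by background and by the offset of the background correction; it ranged from -3.36 without background correction to -6.99 with the scanner's processed signals. None of the sources used here places the probe inside or outside the deleted stretch.

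The genes beside HHO1 were near the wild-type level, with 1 exception past the slight rule. On one side lay NAN1, which encodes a protein of the small-subunit processome, at 0.03, the karyopherin gene KAP120 at 0.19 and the spindle pole body gene SPC29 at -0.12. On the other side the gene of the telomere-repeat binding protein Tbf1 was at 0.26 and TAF14, a subunit gene shared by TFIID and several remodelling complexes, at -0.24. The next gene, SPO19, which acts in spore formation, rose with spots at 0.35 and 0.42 and a same-dye value of 0.50. In the same-dye comparison TBF1 and KAP120 were at -0.31 and -0.36, the opposite side of 0. No gradient from HHO1 outwards is visible in these 6 values.

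**Figure D1:**
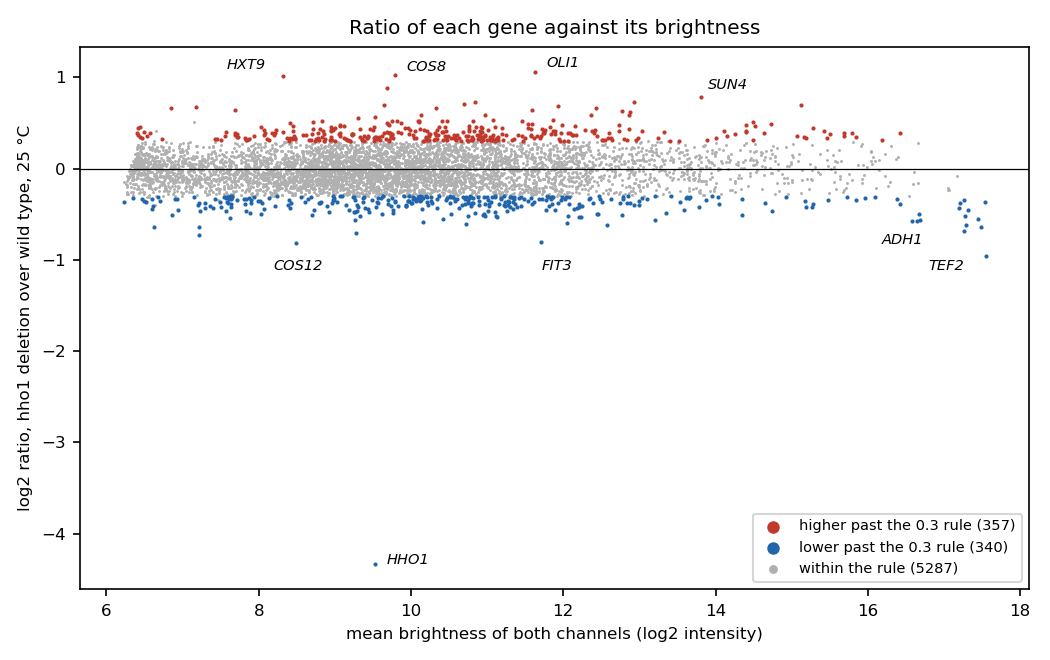
Log2 ratio of the hho1 deletion strain over the wild type at 25 °C (vertical axis) against mean brightness of both channels (horizontal axis, log2 intensity) for the 5984 measured genes, with 357 genes higher past the slight rule in red, 340 lower in blue and the rest in grey. HHO1 lies alone at -4.34, every other gene lies between -0.96 and 1.06, and among the brightest genes the blue points outnumber the red.

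Apart from HHO1 the array was close to flat after loess. That step centres the ratios near 0 at every brightness, so a change common to all genes could not show. The SD over the other 5983 genes was 0.198 with a median of -0.02, and 88.2% of genes lay within 0.3 of 0 and 98.6% within 0.5. Past the larger rule 3 genes were higher (0.0501% of genes measured) and 1 was lower (0.0167%), HHO1 itself, 4 in all (0.0668%). By the slight rule 357 genes were higher (5.97%) and 340 lower (5.68%), 697 in all (11.6%), and 46.5% of genes lay above 0.

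Spots of the same gene agreed far more closely than genes differed from each other. Over 3782 genes with 2 spots, HHO1 left out, Pearson's r between spots was 0.919 and Spearman's rho 0.916, as a description across genes that share a slide and a labelling. The median difference between spots was 0.033, and 3298 of these genes (87.2%) differed by under 0.1 between spots. The root mean square SD between spots was 0.057, against the SD of 0.198 over genes. Only 47 genes had spots 0.3 or more apart, and the widest was the lactate permease gene JEN1, a dim probe, with spots at 0.98 and 0.04. Spot agreement therefore describes the hybridization on this slide, and says nothing of a second culture or labelling.

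Spot noise depended on brightness, and the spread over genes did not follow it. With genes divided by brightness into 10 classes of equal size, the median SD between spots was 0.076 in the dimmest class and 0.015 to 0.019 in the 6 brightest. The SD over genes went the other way, at 0.162 in the dimmest class and 0.232 in the brightest, with HHO1 left out. The offset draws ratios of dim genes towards 0, and its part in the first of these values was not tested. Slight calls were accordingly fewest among dim genes, with 11 higher and 15 lower of 599 in the dimmest class, against 49 higher and 61 lower of 599 in the brightest.

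Wild-type RNA set against wild-type RNA gave a spread as wide as the deletion did. The wild-type Cy5 channel of this array, set against the wild-type Cy5 channel of the heat-shocked deletion strain's array, had an SD of 0.221 over 5917 genes, and 755 of 5918 genes (12.8%) passed the slight rule, against 11.6% for the deletion. Across dyes, wild-type Cy3 over wild-type Cy5, the SD was 0.287 and 1652 of 5910 genes (28.0%) passed. In the same-dye comparison of the deletion strain with the wild type the SD was 0.212, with 242 genes higher (4.09%) and 491 lower (8.31%) by the slight rule. No gene was higher (0.0%) and 17 were lower (0.288%) there by the larger rule. These are single-channel comparisons between arrays, with a root mean square SD between spots of 0.128 in the same-dye comparison and 0.147 between the Cy5 channels, so their spread also holds differences between arrays that a ratio within 1 array does not.

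**Figure D2:**
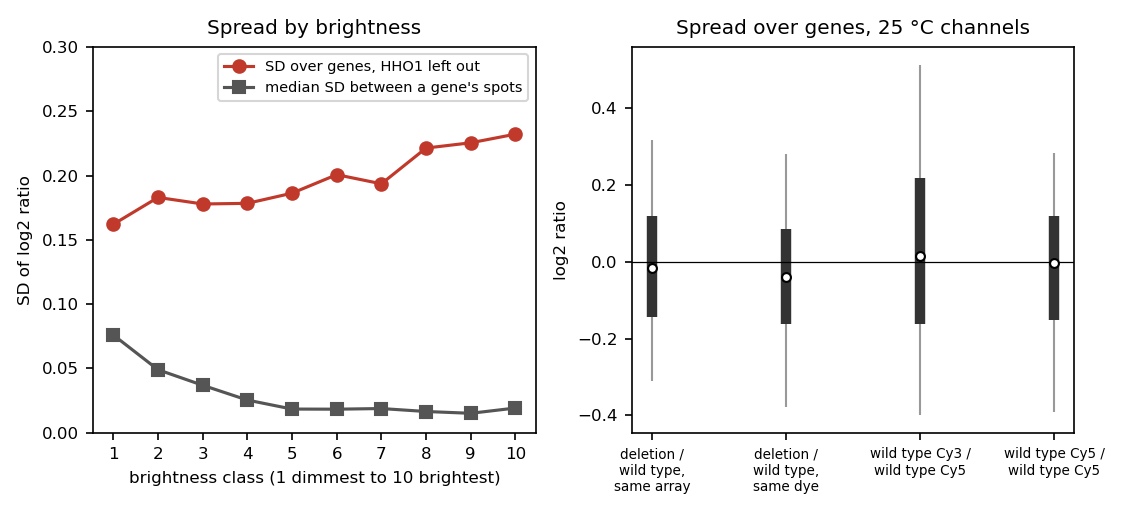
Left, the SD of log2 ratios over genes (red circles, HHO1 left out) and the median SD between the 2 spots of a gene (grey squares) in 10 classes of genes by brightness; spot noise is 0.076 in the dimmest class and 0.019 in the brightest, while the spread over genes is 0.162 and 0.232 at the ends. Right, the median (white point), the interquartile range (thick bar) and the range that leaves out the outer 5% on each side (thin line) for 4 comparisons of 25 °C channels; the deletion's spread is close to that between the wild-type Cy5 channels and narrower than that of wild-type Cy3 over wild-type Cy5.

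The slight calls mostly did not carry over to the same-dye value. Of 357 genes that were higher, 355 had a same-dye value, which was above 0 for 145 and past the slight rule for 29. Among 337 of the 340 lower genes it was below 0 for 211 and past the rule for 55. Over all genes the same-dye median was -0.04, so a value below 0 was the more common one whatever the call. Past the slight rule in the same dye were 4.09% of all genes higher and 8.31% lower, against 8.12% of the 357 and 16.2% of the 340 on their own side. In 49 genes both values passed the rule in opposite directions. Same-dye values are therefore given below beside those of the leading genes and of many classes.

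The 3 genes that rose past the larger rule were OLI1, COS8 and HXT9. HXT9, a hexose transporter gene close to the left end of chromosome X, had spots at 0.95 and 1.07 and a same-dye value of 0.90, and its brightness was 8.32 on the log2 scale, on the dimmer side of the array. COS8, of a family of membrane protein genes near chromosome ends, had spots at 1.03 and 1.02 and a same-dye value of 0.45. The mitochondrial gene OLI1, which encodes the ring subunit of the ATP synthase, was at 1.06 on its only spot. Its same-dye value was 0.08. Wild-type Cy3 exceeded wild-type Cy5 by 0.98 at that probe, which by construction follows from the other values and is no separate observation.

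Below that level the genes with the highest ratios on 2 spots were a mixed group. YIR043C and its neighbour YIR044C, open reading frames at the right end of chromosome IX, were at 0.89 and 0.57, with same-dye values of 0.41 and 0.12. The cell wall and septation gene SUN4 had spots at 0.79 and 0.79 and a same-dye value of 0.29. YLR162W, a small open reading frame, was at 0.73, with 0.34 in the same dye. HXT6, a high-affinity glucose transporter gene, had spots at 0.70 and 0.67 and a same-dye value of 0.65. HXT7, measured on 1 spot, was at 0.63 and 0.74 in the same dye. HXT6 and HXT7 are near-identical, so both probes may report the same transcripts and count as 1 observation.

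Further genes of this group divided by what the same-dye value showed. PGU1, a secreted polygalacturonase gene, had spots at 0.56 and 0.72 and a same-dye value of 0.73. STE3, the receptor gene of alpha cells for the a-factor pheromone, was in the dimmest of the 10 brightness classes, with spots at 0.79 and 0.53 and a same-dye value of 0.53. ALG7, which starts protein N-glycosylation, was at 0.65 but at 0.07 in the same dye. DOT6, a repressor of ribosome synthesis genes, was at 0.66, the cofilin gene COF1 at 0.62, the haem synthesis gene HEM3 at 0.59, the mannoprotein gene SRL1 at 0.59 and the ATP synthase gene ATP1 at 0.58. Those 5 had same-dye values from -0.33 for COF1 to -0.08 for HEM3, below 0 in each case.

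Among the genes that fell, COS12 had the lowest ratio after HHO1 of those with 2 spots. This member of the COS family, the outermost gene measured on the left arm of chromosome VII, had spots at -0.81 and -0.82 and a same-dye value of -0.79. Its wild-type Cy5 signal differed between this array and that of the heat-shocked deletion strain by 1.45, higher on this one, and at 37 °C the strain difference was 0.81 in the other direction. COS12 thus had a like value by 2 routes at 25 °C, while its level in RNA labelled as wild type at 25 °C differed between arrays. The value at 37 °C subtracts -0.84 in the wild type from -0.03 in the deletion strain, each over its own array's reference. Its side of 0 cannot be told apart from the difference between references.

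The 3 FIT genes, whose wall mannoproteins bind siderophore iron, all fell. FIT3 was at -0.81 on 1 spot, with -0.64 in the same dye. FIT1 had spots at -0.71 and -0.70 and a same-dye value of -0.32. The third gene of the group, FIT2, picked out after its values were seen, had spots at -0.27 and -0.34 and a same-dye value of -0.56. They were the only ones of 31 iron-uptake genes past the slight rule on the low side, and the reductase gene FRE1, at 0.54, was the only one on the high side, with a same-dye value of 0.01. The median of the iron list was 0.11, with 19 of 31 genes above 0. In the same dye it was -0.11, with 11 of 31 above 0.

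Other genes that fell by at least 0.5 and lay lower still in the same dye were VBA1, RPS31, RPS2 and GLN1. The cytosolic ribosomal protein genes, RPS31 and RPS2 among them, had a same-dye median of -0.34. The vacuolar amino acid transporter gene VBA1 had spots at -0.59 and -0.63, and -1.02 in the same dye. RPS31, which encodes a ubiquitin fused to a ribosomal protein, was at -0.57 and -0.66 by the 2 routes. RPS2, on 1 spot, was at -0.55 and -1.09, and the glutamine synthetase gene GLN1, also on 1 spot, at -0.51 and -0.88.

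By contrast, the glycolytic genes GPM1, ADH1 and TPI1 were at -0.69, -0.62 and -0.52 within the array but at 0.15, 0.33 and 0.06 in the same dye. The nitrilase-family gene NIT3 was at -0.62 and 0.13, the glycerol-3-phosphatase gene GPP2 at -0.59 and 0.01, and the serine deaminase gene CHA1 at -0.53 and 0.10. The elongation factor genes TEF2, on 1 spot, and TEF1, near-identical copies that may share a signal, were at -0.96 and -0.64, with -0.24 and -0.33 in the same dye. GCG1, a glutathione-degrading enzyme gene, was at -0.59 and -0.12, the mitochondrial gene YLH47 at -0.56 and -0.10, and RPL24A at -0.56 and -0.15. YBL107W-A, a very bright probe, was at -0.57 and -0.32. HIM1, linked to DNA repair, was not well above background in the deletion strain, and its ratio of -0.73 was 0.17 under median centring.

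**Figure D3:**
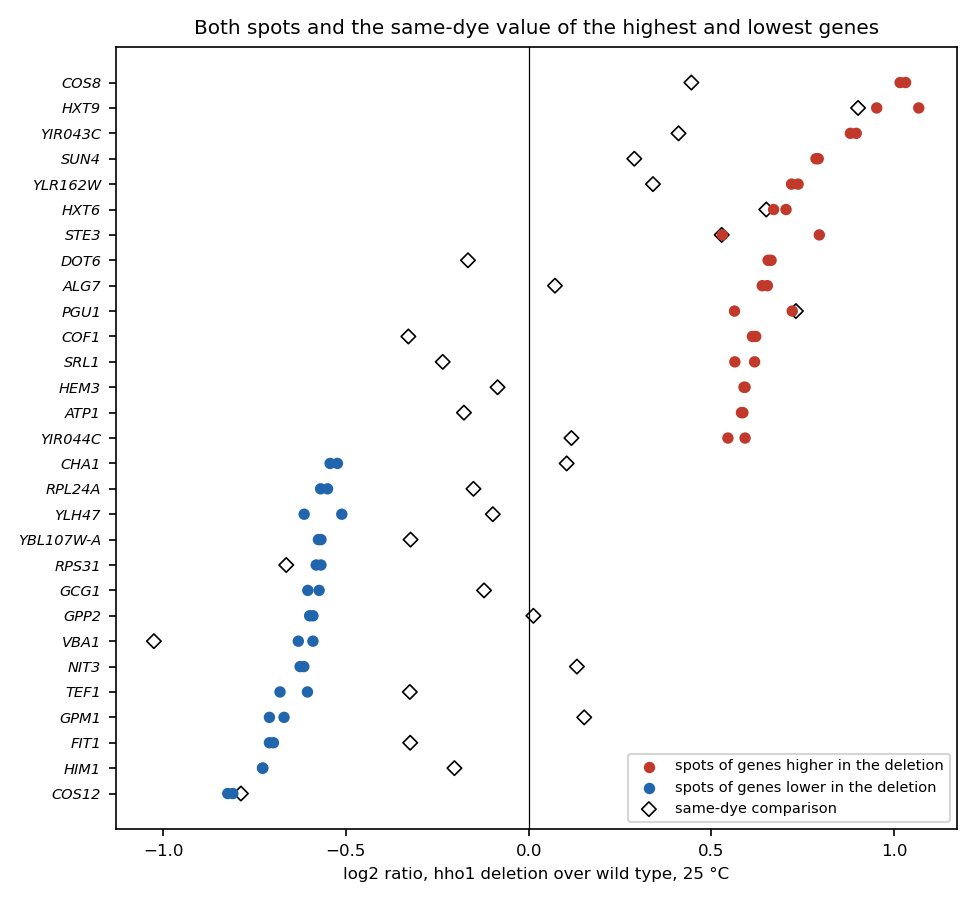
Each spot (filled circles, red for genes higher and blue for genes lower in the deletion strain) and the same-dye value (open diamonds) of the genes with the highest and lowest mean ratios among those with 2 spots, on an axis of log2 ratio, deletion over wild type at 25 °C; HHO1 is left out for scale. The 2 spots nearly coincide for most genes, whereas the diamonds stay with the spots for HXT9, HXT6, PGU1, RPS31 and COS12 and lie near or across 0 for many others.

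The 50 brightest genes leaned to the low side: 34 were below 0, with a median of -0.18, 19 fell and 2 rose. The brightest class of 599 genes had a median of 0.01. In the same dye that class had a median of -0.18 and the dimmest class 0.04, so same-dye values of bright genes and classes are read against the former. The median of the 50 was below 0 in the other processings examined, at -0.48 in the same dye, -0.58 under median centring and -0.32 in the authors' deposited table. Within the 50, however, the genes differed, as GPM1 and ADH1 above show. No spot on the array was saturated.

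Gene classes were then described as lists, 51 in all, holding 1894 measured genes. A class was described as shifted when its median lay at least 0.1 from the median of all genes, -0.02, with at least 2 in 3 members on that side. By that description 5 classes lay higher, 4 lower and 42 were not shifted, and 24 medians lay within 0.05 of that of all genes. The class medians ran from -0.24 to 0.21. Shares past the slight rule are read against 5.97% higher and 5.68% lower among all genes. Members named below only to account for a small count, outside the naming rule, were picked after their values were seen.

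**Figure D4:**
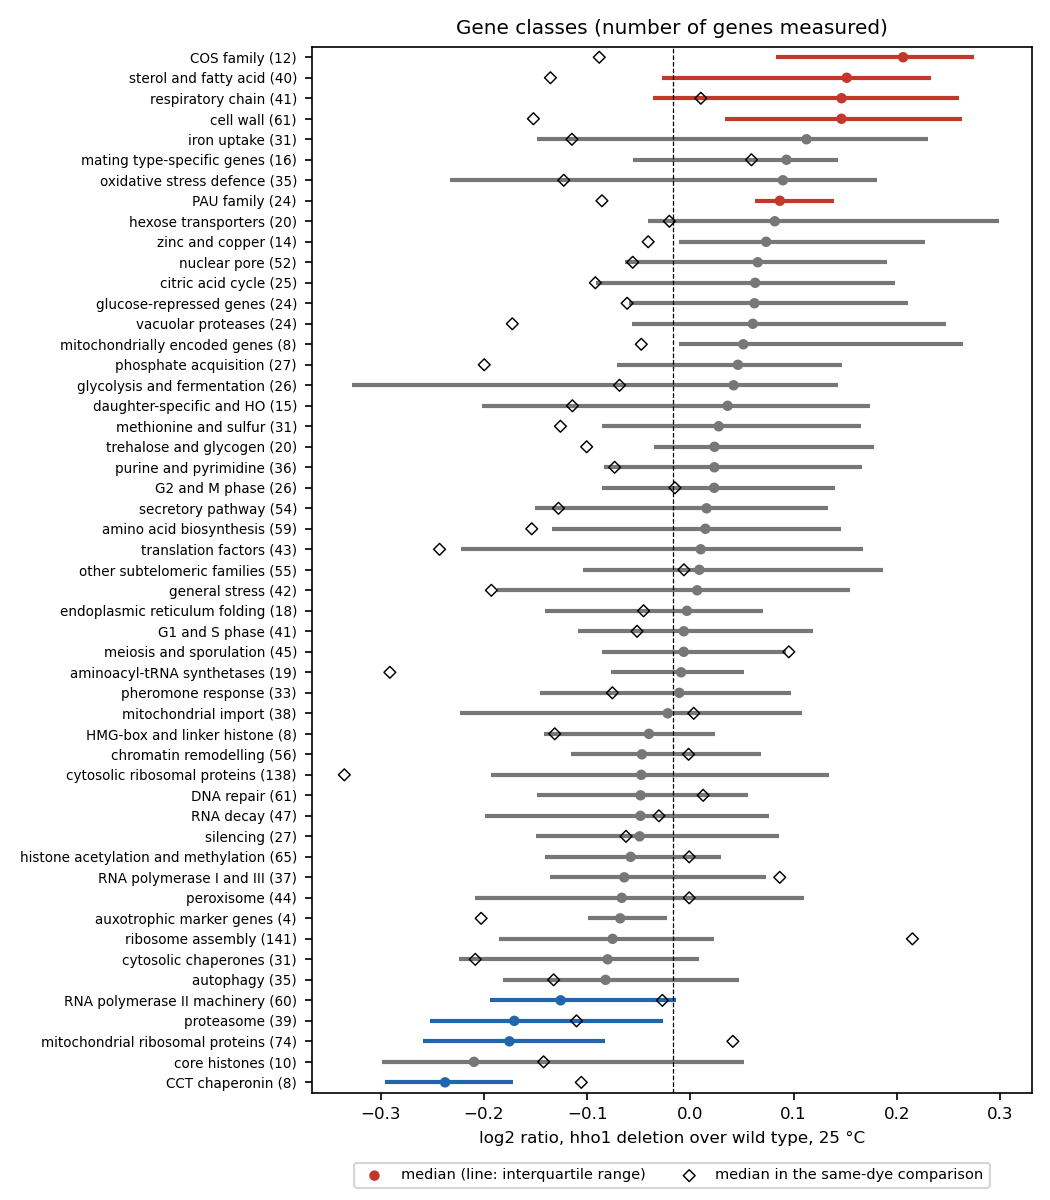
Median log2 ratio (points) and interquartile range of members (lines) of the 51 gene classes at 25 °C, deletion strain over wild type, ordered by median, with the median of the same members in the same-dye comparison (open diamonds) and the median of all genes (dashed line at -0.02). Red marks the 5 classes described as shifted higher and blue the 4 shifted lower; among these, diamonds lie on the other side of the dashed line for cell wall, sterol and fatty acid, COS, PAU and mitochondrial ribosomal protein genes.

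Chromatin genes other than HHO1 gave no common shift. Of the 7 other genes of the architectural list, which holds the HMG-box proteins, none passed the slight rule. They ran from ABF2, which packages mitochondrial DNA, at -0.15 to NHP6A, a nucleosome-bending protein gene, at 0.30, with its near-identical partner NHP6B at 0.02. HMO1, an HMG-box protein of ribosomal genes, was at -0.07 and the repressor genes ROX1 and IXR1 at 0.03 and -0.01. The INO80 subunit gene NHP10 was at -0.14.

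Core histone genes lay on both sides of 0, and both H4 genes and the H3 gene HHT1 lay lowest. HHF2 fell with spots at -0.52 and -0.51, HHF1 was at -0.42 on 1 spot, and HHT1, an H3 gene, had spots at -0.31 and -0.30. The same-dye values of HHF2, HHF1 and HHT1 were -0.21, -0.18 and -0.16, on the same side. HHF1 and HHT1 are in the brightest of the 10 brightness classes, whose same-dye median was -0.18. HHF2 is in the next class, whose same-dye median was -0.04. HHT2 was at -0.16, HTA2 at -0.28 and the centromeric variant gene CSE4 at -0.26, none of them past the rule, while HTA1 was at 0.07, HTB1 at 0.00, HTB2 at 0.18 and the variant gene HTZ1 at 0.07. The median of the 10 was -0.21, with 4 above 0, 3 past the slight rule on the low side and none on the high side. In the same dye it was -0.14, and their median brightness of 13.37 lies in the brightest of the brightness classes. Both gene copies of a core histone encode near-identical proteins, and whether the probes separate them is unknown.

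Larger chromatin classes were flat. Silencing genes, 27 in all, had a median of -0.05, with 2 higher and none lower. The 2 were the sirtuin gene HST2, with spots at 0.46 and 0.44 but a same-dye value of -0.12, and NET1, of nucleolar silencing, at 0.36 and 0.05. Chromatin remodelling genes also had a median of -0.05, with 1 higher and 4 lower of 56. Of these, the actin-related subunit gene ARP9 was at -0.40, the SWR1 subunit gene VPS71 at -0.37, RTT102, of RSC and SWI/SNF, at -0.36, the FACT subunit gene POB3 at -0.34 and the RSC gene RSC3 at 0.30. In the same dye none of the 5 passed the slight rule on the same side, and they ran from -0.03 for RSC3 to 0.24 for RTT102. Among 65 genes of histone acetylation and methylation the median was -0.06, with 2 higher, SWD2 at 0.36 and SGF29 at 0.32, and none lower. The same-dye medians of the silencing, remodelling and modification classes were -0.06, 0.00 and 0.00. DNA repair genes, of interest because Hho1 has been tied to recombination, had a median of -0.05, with 2 higher and 2 lower of 61, RNR3 at 0.47 and CHK1 at 0.32 against UNG1 at -0.41 and APN1 at -0.31.

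Gene families near chromosome ends did not move as 1 group. The COS family had the highest class median, 0.21, with 10 of 12 members above 0. COS8, COS5 and COS7 rose, at 1.02, 0.52 and 0.31, and COS12 fell. The others ran from COS111 at -0.12 and COS10 at 0.03 through COS2 and COS3 at 0.10 each, COS1 at 0.20, COS6 at 0.21 and COS4 at 0.22 to COS9 at 0.26. The family's same-dye median was -0.09, near that of all genes, -0.04, and COS5 was at -0.10. COS genes are close copies of each other, so a probe may report several.

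The PAU family, seripauperin genes of which all 24 measured members lay above 0, had a median of 0.09 and a narrow spread, SD 0.072. Only PAU17 passed the slight rule, with spots at 0.40 and 0.36 and a same-dye value of 0.24. PAU2, PAU8 and PAU11 followed at 0.17, 0.16 and 0.15. The family's same-dye median was -0.09, and the near-identity of PAU genes means that 24 probes are fewer than 24 observations. The remaining families of this kind had a median of 0.01, with 7 higher and 2 lower of 55. These lists go by family and not by position, and HXT4, 126 measured genes from the end of its arm, was among the higher ones. HXT9 and HXT4 are counted again below among hexose transporter genes, and FLO11 among cell wall genes.

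Genes at the chromosome ends themselves, whatever their family, showed more slight calls on the high side. Of 160 genes within the outermost 5 of each arm, 20 were higher (12.5%) and 6 lower (3.75%), with a median of 0.03 and a same-dye median of 0.02. Of 4704 genes at position 41 or beyond, 261 were higher (5.55%) and 283 lower (6.02%), with a median of -0.03. At positions 6 to 10 there were 11 higher (6.88%) and 13 lower (8.12%) of 160, and at positions 11 to 20 there were 26 higher (8.12%) and 13 lower (4.06%) of 320. The outermost genes were also dimmer, with a median brightness of 8.14 on the log2 scale against 9.72 beyond position 40; its part in the difference was not tested. COS8, YIR043C, HXT9 and COS12 above all belong to these outermost genes.

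Whole chromosomes differed little. Chromosome medians ran from -0.06 for chromosome XV to 0.02 for chromosome XII, a range of 0.083. Chromosome XV had 17 genes higher (3.11%) and 58 lower (10.6%) of 546. Same-dye medians of chromosomes XV and XVI were both -0.18, with 451 of 540 and 389 of 465 genes below 0, against -0.04 for all genes, and the range grew to 0.252. On the wild type's own channels Cy3 exceeded Cy5 by a median of 0.10 for chromosome XV and 0.14 for XVI.

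Coding length went with the ratio within the array. Over 5617 genes with a known length Spearman's rho was 0.21, as a description across genes, and it was -0.09 in the same-dye comparison. With genes divided by length into 10 classes of equal size, the longest class had a median of 0.07, with 47 higher and 1 lower. The second class from the short end had -0.10, with 18 higher and 62 lower, and the shortest, at 0.01, did not follow that order.

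**Figure D5:**
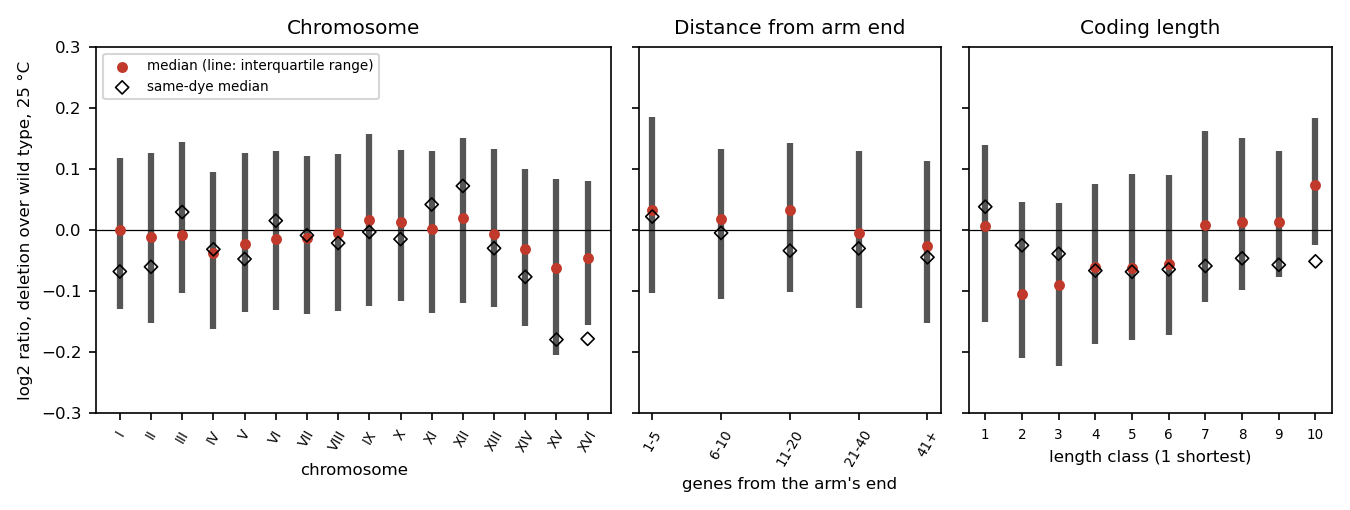
Median log2 ratio, deletion strain over wild type at 25 °C (red points, with the interquartile range as bars), and same-dye median (open diamonds) by chromosome, by distance from the end of the chromosome arm counted in measured genes, and by 10 classes of coding length. Chromosomes XV and XVI stand out in the same-dye medians at -0.18, and the longest genes stand out within the array at 0.07 but not in the same dye.

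Hexose transporter genes passed the slight rule on the high side only. Of 20 measured, 5 rose and none fell, with a median of 0.08. The 5 include both HXT6 and HXT7, which may count as 1 observation. HXT9, HXT6 and HXT7 kept their values in the same dye, as given above. The other members past the rule were HXT4, at 0.50 with spots at 0.49 and 0.52, and HXT2 at 0.35, named after its value was seen; their same-dye values were -0.17 and -0.20. The same-dye median of the class was -0.02. Glucose-repressed genes as a whole, 24 in number, had a median of 0.06, with 3 higher and none lower: the activator gene ADR1, at 0.52 on 1 spot, the maltose transporter gene MAL31 at 0.44 and the invertase gene SUC2 at 0.35. Their same-dye values were -0.10, -0.19 and 0.08.

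Most cell wall genes lay above 0 within the array. Of 61 genes, which make glucan, chitin, mannan and wall proteins, 51 were above 0, 10 rose and none fell, and the median was 0.15. The glucan synthase gene FKS1 was at 0.40 on 1 spot, the wall protein gene CWP2 had spots at 0.38 and 0.40, and FLO11, a flocculin gene, had 0.42 and 0.36. Same-dye values were above 0 for 7 of the 60 genes that had one, with a median of -0.15. The wild type's own Cy3 over Cy5 median for these genes was 0.32, a value tied by construction to those within the array and in the same dye. Of the members named, FLO11 kept its sign, at 0.26 in the same dye.

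Sterol and fatty acid synthesis genes also lay higher within the array and lower in the same dye. Their median was 0.15, with 29 of 40 above 0, 4 higher and 1 lower. HMG1, which encodes the controlling enzyme of sterol synthesis, was at 0.36, ERG5 at 0.34, the fatty acid elongase gene ELO1 at 0.31 and the fatty acid synthase gene FAS1 at 0.31. All 4 were below 0 in the same dye, from -0.31 for ERG5 to -0.03 for ELO1, and the class median there was -0.14. The single gene that fell was IDI1, at -0.31, named after its value was seen.

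Nuclear genes of the respiratory chain and ATP synthase had a median of 0.15, with 9 of 41 higher and none lower. ATP1 had both spots near 0.58, the NADH dehydrogenase gene NDE1 was at 0.43, the cytochrome c oxidase gene COX4 at 0.41 and the ATP synthase gene ATP18 at 0.47 on 1 spot. In the same dye the median was 0.01; ATP18 was at 0.41, NDE1 at 0.02, ATP1 at -0.18 and COX4 at -0.30. Citric acid cycle genes had a median of 0.06, with 3 higher and none lower of 25, the ketoglutarate dehydrogenase gene KGD1 at 0.38 and the succinate dehydrogenase genes SDH2 and SDH1 at 0.35 and 0.34. The median of that class was -0.09 in the same dye. Of 8 measured genes of mitochondrial DNA, OLI1 and the intron-encoded AI5_ALPHA, at 0.51, rose, and the median was 0.05; 15 other genes of this list were not measured.

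Mitochondrial ribosomal protein genes lay lower as a block. Of 74 measured, 9 were above 0, 10 fell and none rose, and the median was -0.18. MRP7 had spots at -0.44 and -0.42, MRPL13 had -0.39 and -0.41, and MRPL22 and MRPL8 were at -0.41 and -0.38 on 1 spot each. The same-dye median was 0.04, with MRPL22 and MRPL13 at -0.12 and -0.11 and MRP7 and MRPL8 at 0.14 and 0.17. The wild type's own Cy3 over Cy5 median for the class was -0.21.

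The chaperonin and the proteasome were lower by small amounts. The 8 genes of the CCT chaperonin, which folds actin and tubulin, had the lowest class median, -0.24, with 6 below 0 and 2 past the slight rule. CCT4 had spots at -0.49 and -0.49, CCT8 was at -0.39, CCT6 at -0.26 and CCT7 at -0.24. In the same dye all 8 were below 0, with a median of -0.11 against -0.04 for all genes, and CCT4 was at -0.19 and CCT7 at -0.28. The class was bright, with a median of 13.08 on the log2 scale, and the brightest of the 10 brightness classes had a same-dye median of -0.18. Proteasome genes had a median of -0.17, with 8 of 39 above 0, 5 lower and 1 higher. The core subunit genes SCL1, PRE6 and PRE2 were at -0.42, -0.37 and -0.30 and the assembly factor gene UMP1 at -0.35, with same-dye values of 0.04, 0.03, -0.33 and -0.18. The other 2 past the rule were the deubiquitinase subunit gene RPN11, at -0.30, and the activator gene BLM10, at 0.31. The same-dye median of the proteasome was -0.11.

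The RNA polymerase II machinery, its general factors and Mediator included, had a median of -0.13, with 14 of 60 above 0. TAF10, on 1 spot, fell at -0.47 and MED11, of Mediator, at -0.39, the largest subunit gene RPO21 rose at 0.37, and the TATA-binding protein gene SPT15 and the TFIIA gene TOA1, at -0.28 each, did not pass the rule. The same-dye median was -0.03, with RPO21 at 0.20, TAF10 at 0.07 and MED11 at 0.14. For RNA polymerases I and III the median was -0.06, with 2 lower and none higher of 37, UAF30 at -0.47 and RPC19 at -0.39, and it was 0.09 in the same dye.

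Ribosome genes were wide in spread without a common direction within the array. Of 138 cytosolic ribosomal protein genes 13 rose and 19 fell, with a median of -0.05 and an SD of 0.243. RPS27B was at 0.69, RPP1A at 0.66, RPP1B at 0.59 and RPS29B at 0.51, against RPS31, RPL24A and RPS2 at the other end. In the same dye the class median was -0.34, and RPS27B was at -0.42, RPP1A and RPP1B at 0.00 and RPS29B at -0.14. Ribosome assembly genes, which make and fold ribosomal RNA, had a median of -0.08, with 3 higher and 7 lower of 141, and 0.22 in the same dye. The wild type's own Cy3 over Cy5 medians for these classes were 0.34 and -0.31. Most ribosomal protein genes have a close copy that a probe may not separate.

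Translation factor genes had a median of 0.01, with 2 higher, the helicase gene DED1 at 0.45 and the recycling factor gene RLI1 at 0.34, and 7 lower of 43, led by TEF2 and TEF1. In the same dye the median was -0.24, with 5 of 43 above 0, which counts as shifted lower by the same description. The 19 cytosolic tRNA synthetase genes had a median of -0.01, an SD of 0.122 and 1 gene lower, SES1 at -0.32. Their same-dye median was -0.29, against -0.18 for the brightest of the 10 brightness classes, in which their median brightness of 13.19 lies.

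Cell cycle classes stayed flat within the array. Of 41 G1 and S phase genes and 26 G2 and M phase genes none passed the slight rule, where 11.6% of all genes did; the medians were -0.01 and 0.02 and the SDs 0.144 and 0.143. Meiosis and sporulation genes had a median of -0.01 with 1 of 45 higher, SPO19. Their same-dye median was 0.10, with 30 of 42 above 0, which counts as shifted higher by the same description. They were dim, with a median brightness of 6.95, and 12 of 57 were not measured. That brightness lies in the dimmest brightness class, where 11 genes were higher and 15 lower of 599. The offset draws ratios of dim genes towards 0, and its part in the median within the array was not tested. Pheromone response genes were at -0.01, with 3 higher and 2 lower of 33; the higher ones were the agglutinin gene AGA1 at 0.45, FIG2 at 0.42 and PRM1 at 0.30, and the lower ones KAR4 at -0.33 and GPA1 at -0.32. The 16 genes specific to a mating type had a median of 0.09 with 3 higher and none lower, STE3, MFA2 at 0.42 and SAG1 at 0.38. These 3 belong to cells of different mating types, MFA2 to a cells and STE3 and SAG1 to alpha cells. Their same-dye values were 0.53, 0.14 and 0.01.

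Stress classes were not shifted within the array. General stress genes had a median of 0.01, with 4 higher and 4 lower of 42, and GPP2 was the member farthest from 0. Their same-dye median was -0.19, with 10 of 42 above 0, which counts as shifted lower by the same description. Cytosolic chaperone genes had a median of -0.08, with 1 higher and 6 lower of 31, and -0.21 in the same dye. Oxidative stress defence genes had a median of 0.09, and -0.12 in the same dye, with 4 higher and 3 lower of 35 within the array, and the glutathione synthetase gene GSH2 was at -0.53 on 1 spot and -0.23 in the same dye. Trehalose and glycogen genes, at 0.02, had 1 higher of 20, the phosphorylase gene GPH1 at 0.37. Glycolysis and fermentation genes had a wide spread about a median of 0.04, with 3 higher and 7 lower of 26.

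Nutrient classes were near the median of all genes within the array. Amino acid synthesis genes were at 0.01, with 5 higher and 4 lower of 59, purine and pyrimidine genes at 0.02, with 4 higher and 3 lower of 36, and phosphate genes at 0.05, with 2 higher and 1 lower of 27. Same-dye medians were lower, at -0.15 for amino acid synthesis, with 8 of 59 above 0, and -0.20 for phosphate genes, with 4 of 27 above 0, both shifted lower there, and at -0.07 for purine and pyrimidine genes. Among metal genes the zinc transporter gene ZRT1 was at 0.69 on 1 spot and 0.24 in the same dye, and the class of zinc and copper genes at 0.07, with 2 higher of 14. In nucleotide synthesis IMD2, of guanine synthesis, was at 0.53 on 1 spot and -0.08 in the same dye. The mitochondrial import genes TOM7 and TIM8, with spots at 0.52 and 0.53 and at 0.53 and 0.51, rose, and TIM54, on 1 spot, fell at -0.51, in a class with a median of -0.02. Of these, TIM8 was at 0.30 in the same dye, TOM7 at 0.04 and TIM54 at 0.10.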

How the data were processed

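RNA was amplified with a linear amplification kit, labelled and hybridised to 2-colour Agilent arrays, per the labels' protocols. Spot intensities in the deposited scanner files are mean pixel brightness per channel from Agilent Feature Extraction 9.1.1.1, per the file headers. Processed intensity values and the red-over-green log10 ratio were made by the same software, with background subtraction and dye normalisation, per the file headers; the log10 ratio served only to set direction. The authors' deposited table holds log2 ratios, which correlated with the scanner's ratio (deletion over wild type) at 0.733 over gene spots, with a median of -0.015 and a slope of 1.27 on the values used here. The submitters' processing notes name limma, without steps, and the centring of that table is unknown.

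The analysis here used R 4.3.3 and limma 3.58.1: normexp background correction with an offset of 50, then loess within each array, control and flagged spots at weight 0. A spot was used where well above background in at least 1 channel, which held for 90.1% of gene spots in Cy3 and 95.1% in Cy5, and a gene's ratio is the mean over its spots. Median signals above background were 366 in Cy3 and 1199.8 in Cy5. Of gene spots 2 were flagged and 0 saturated. Both deletion arrays shared 1 slide and scan, which the wild-type array did not. Single-channel comparisons used Aquantile after loess. The number of arrays limits the precision. The calculation was checked on simulated data.

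Names came from the R64 RefSeq gene table through the systematic name, which also gave chromosome and order; 5756 of 6256 genes matched. Coding lengths are of gene spans, of which 97.1% were multiples of 3. Members and lists were chosen with earlier results of these data known. Named genes were HHO1 and 3 genes on either side, genes past the larger rule, the 15 highest and 15 lowest with 2 spots past the slight rule, up to 4 members per shifted class, all members of chromatin, silencing, subtelomeric or hexose classes of up to 12 genes, and class members at 0.5 or more in size; others are marked as chosen after their values were seen. Alternatives were 4 other background or scaling choices, the deposited table, 2 filters on dim spots, the brightest spot and the same-dye comparison.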

Additional observations from a re-analysis of the deposited data

Results flagged for a closer look

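As calculated, COS12 lay on opposite sides in the 2 strain comparisons, but the wild-type references behind the 37 °C value differed in level. Its log2 ratio, deletion strain over wild type, was -0.82 at 25 °C, with both spots within 0.02 of each other, and 0.81 at 37 °C, where each strain was set over its own wild-type reference on a different slide with opposite dyes. Both arrays of the deletion strain and that of the wild type enter these values, with 1 array a group, and the difference between the temperatures was not tested. The wild-type Cy5 signal of COS12 differed by 1.45 between the arrays that carried the deletion strain, lower on that of the heat-shocked strain. Wild-type Cy3 on the heat-shocked wild type's array differed from wild-type Cy5 on the 25 °C array by -0.03. The side of 0 at 37 °C therefore cannot be told apart from the unlike level of the references.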

How the results depend on the processing

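Counts depended strongly on the scaling. By the larger rule 3 genes were higher and 1 lower; the counts were 1 higher without background correction, 5 and 7 without an offset, 25 and 76 from the scanner's processed signals, 559 and 6 under median centring, 6 and 16 in the deposited table, and 0 and 17 for same-dye values. By the slight rule, 357 higher and 340 lower, there were 224 higher without background correction, 597 lower without an offset, 667 and 696 from the processed signals, 1344 and 943 under median centring, and 590 and 550 in the deposited table. Shifted classes, 5 higher and 4 lower, numbered 10 higher in the deposited table, 8 higher where both channels had to be well above background, 18 lower under median centring, and 3 higher and 9 lower in the same dye. The range of chromosome medians was 0.252 in the same dye. The root mean square SD between spots was 0.035 without background correction, 0.097 without an offset, 0.141 from the processed signals, 0.103 in the deposited table and 0.128 for same-dye values. The cause was not tested.

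Among the shifted classes, medians relative to all genes changed side in the same dye for mitochondrial ribosomal proteins (0.081), sterol and fatty acid (-0.096, and -0.045 under median centring), cell wall (-0.112), COS (-0.048), PAU (-0.046) and RNA polymerase II genes (0.013). Among genes chosen by the naming rule, those past a rule that changed sign in the same dye were RPS27B (-0.423), COF1 (-0.329), ERG5 (-0.307), COX4 (-0.297), FAS1 (-0.264), SRL1 (-0.235), ATP1 (-0.177), HXT4 (-0.167), DOT6 (-0.166), HMG1 (-0.160), RPS29B (-0.139), ADR1 (-0.103), COS5 (-0.102), HEM3 (-0.085), IMD2 (-0.080), CWP2 (-0.077), AI5_ALPHA (-0.060), ELO1 (-0.028), FKS1 (-0.022), GPP2 (0.013), PRE6 (0.027), SCL1 (0.043), TPI1 (0.057), TAF10 (0.066), TIM54 (0.101), CHA1 (0.104), NIT3 (0.132), MRP7 (0.138), MED11 (0.141), GPM1 (0.152), MRPL8 (0.171) and ADH1 (0.332). Under median centring MED11 (0.101) and HIM1 (0.169) did. Of the other values of named genes, called or not, 849 kept their call or moved within the spread between spots, 86 moved by more, 48 no longer passed the slight rule and 17 newly passed it.

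No paired analysis was possible because there was a single array for each group. Every value rests on 1 hybridisation with 1 dye orientation, so dye and strain cannot be told apart within it; dim genes are limited by background and by the offset.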

Other observations

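Several genes outside the naming rule, picked out after their values were seen, lay on the same side of 0 within the array and in the same dye. RPL41A and RPL41B, near-identical genes of a very short ribosomal protein, were at 0.48 and 0.41 within the array and at 0.44 and 0.54 in the same dye. At 37 °C the strain difference of this pair was -1.22 and -1.14. The small heat shock protein gene HSP26 had spots at -0.46 and -0.49 and a same-dye value of -0.63, and it was at -1.14 at 37 °C. The isomaltase genes IMA3 and IMA4, close copies near chromosome ends, were at 0.33 and 0.32, with 0.41 and 0.43 in the same dye. The polyamine transporter gene TPO2 had spots at 0.39 and 0.52 and a same-dye value of 0.46. The initiation factor gene SUI3 and the elongation factor gene EFB1 were at -0.46 and -0.35, with -0.48 and -0.58 in the same dye. These pairs of values share the deletion strain's channel, and no replicate of that channel exists.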
